A study of Homo sapiens with 16 samples.

Results

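Aminoacyl-tRNA synthetases are the enzymes that join each amino acid to its transfer RNA, the step that sets which amino acid a codon is read as. The genes examined were 35 synthetase genes of 34618 gene IDs in the count table, found by their symbols: 19 for cytosolic enzymes and 16 for mitochondrial ones. All 35 were found, and all 35 passed the filter on low counts in every comparison. RNA was sequenced from KG1A, an immature CD34-positive human acute myeloid leukaemia line, and from U937, a human promonocytic line. Cells of each line, grown in RPMI medium with dialyzed serum, received NEL at 10 µM or the vehicle DMSO, giving 4 libraries in each of the 4 groups and 16 in all. The labels name neither the compound in full nor a treatment time. From what is known of the study, NEL was taken to be nelarabine, a nucleoside drug whose base is a purine, though no label states this. The comparisons were NEL against DMSO in each line, the difference of that effect between the lines, and U937 against KG1A without NEL.

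Human cells keep separate enzymes for protein synthesis in the cytosol and inside mitochondria, and nuclear genes encode both kinds. GARS1 and KARS1 serve both compartments from a single gene, so they have no mitochondrial partner, and they are grouped with the cytosolic enzymes here. In the cytosol EPRS1, IARS1, KARS1, LARS1, MARS1, QARS1 and RARS1 sit together in the multisynthetase complex, held by the scaffold proteins AIMP1, AIMP2 and EEF1E1, while the other cytosolic enzymes work outside it. FARSA and FARSB are the subunits of the enzyme for phenylalanine, and EPRS1 charges both glutamate and proline. Many cytosolic synthetase genes are known targets of ATF4, the transcription factor of the amino acid response, and WARS1 is a known target of interferon-gamma.

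Library totals ran from 10641567 to 11777684 counts. The line labels were checked against marker genes, in CPM (counts set relative to library size, with edgeR's TMM factors for each comparison). In DMSO, CD34 stood at a mean of 892 CPM in KG1A and 0.315 in U937. ELANE, a neutrophil elastase gene, stood at 0.0921 and 391 CPM, and LYZ, encoding lysozyme, at 0.0469 and 67.6. MPO, a promonocytic marker, was near absent in both lines (0.0694 and 0.379 CPM), and of the T lymphoid genes examined KG1A held CD3D at 118 CPM and CD3E at 27.5, with CD2 near absent (0.07 CPM, against 0.548 in U937). Within a group, libraries 1 and 3 differed from libraries 2 and 4 by more than sampling noise: chi-square per degree of freedom was 1.26 to 1.98 within such a set and 3.88 to 8.47 across. No label names a batch. Over these sets the log2 fold changes of the 35 genes had the same sign in 33 for NEL in KG1A, 33 for NEL in U937, 32 for the difference and 33 between the lines. No label says that the libraries sharing a group were separate cultures, and the p-values may therefore measure technical spread alone. In bulk RNA, fewer cells of a kind and less RNA per cell cannot be told apart.

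Promoters were read from RefSeq (GRCh38.p14), from 250 bases before to 50 after each annotated start, and were present for 30 of the 35 genes, 16 cytosolic and 14 mitochondrial. They were searched on both strands for TGATGNAA, the composite element read by ATF4 with a C/EBP partner, CACGTG, the E-box read by MYC and related factors, and GCGCATGCG, the element read by NRF1. TGATGNAA was present in 7 of 16 cytosolic genes (43.8%: AARS1, CARS1, GARS1, IARS1, MARS1, NARS1 and TARS1) and in 1 of 14 mitochondrial genes (7.14%: YARS2), against 2.88% of 11335 tested genes with a promoter and 3.62% of 35116 promoters of the same length. CACGTG was present in 1 cytosolic gene (IARS1) and 3 mitochondrial genes (CARS2, EARS2 and MARS2), against 12.2% of the tested genes, and GCGCATGCG in MARS2 alone, against 4.11%. Over all 35116 promoters the shares were 7.26% for CACGTG and 1.92% for GCGCATGCG. A match is a description of the letters and not a measured site of binding. The promoters of 5 genes on which the results below turn are printed 5′ to 3′ on the strand of the gene, with any match of these elements in capitals. The TGATGNAA match lies on the opposite strand in AARS1, CARS1, GARS1 and MARS1, so it is printed as its reverse complement. It begins 2 bases before the annotated start in CARS1, 4 before it in MARS1, 33 before it in GARS1 and 187 before it in AARS1. The capitals in MARS2 are overlapping matches of GCGCATGCG on both strands followed by CACGTG.
AARS1, chr16:70289457-70289756, minus strand: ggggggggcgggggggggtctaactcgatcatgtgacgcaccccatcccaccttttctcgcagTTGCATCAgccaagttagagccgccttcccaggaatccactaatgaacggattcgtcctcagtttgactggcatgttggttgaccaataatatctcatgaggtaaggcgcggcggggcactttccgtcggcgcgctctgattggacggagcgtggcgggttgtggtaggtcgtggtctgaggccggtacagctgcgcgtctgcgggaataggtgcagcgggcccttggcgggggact
CARS1, chr11:3057374-3057673, minus strand: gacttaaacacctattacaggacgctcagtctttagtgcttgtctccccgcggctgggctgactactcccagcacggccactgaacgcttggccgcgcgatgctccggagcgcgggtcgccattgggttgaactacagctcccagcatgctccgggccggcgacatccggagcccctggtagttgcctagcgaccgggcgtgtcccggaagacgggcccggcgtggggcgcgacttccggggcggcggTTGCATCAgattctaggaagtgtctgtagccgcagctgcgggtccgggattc
GARS1, chr7:30594628-30594927, plus strand: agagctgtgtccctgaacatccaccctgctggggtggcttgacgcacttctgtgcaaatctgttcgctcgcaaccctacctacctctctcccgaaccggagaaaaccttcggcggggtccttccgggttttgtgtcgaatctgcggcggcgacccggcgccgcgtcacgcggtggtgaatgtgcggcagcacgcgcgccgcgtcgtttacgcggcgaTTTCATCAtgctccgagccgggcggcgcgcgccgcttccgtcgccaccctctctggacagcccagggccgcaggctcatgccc
MARS1, chr12:57487818-57488117, plus strand: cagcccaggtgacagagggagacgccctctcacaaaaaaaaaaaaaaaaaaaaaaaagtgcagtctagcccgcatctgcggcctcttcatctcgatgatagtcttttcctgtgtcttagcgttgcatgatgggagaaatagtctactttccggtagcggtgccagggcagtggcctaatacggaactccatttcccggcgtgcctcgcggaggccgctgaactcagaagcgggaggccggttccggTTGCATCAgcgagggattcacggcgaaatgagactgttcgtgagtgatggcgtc
MARS2, chr2:197705119-197705418, plus strand: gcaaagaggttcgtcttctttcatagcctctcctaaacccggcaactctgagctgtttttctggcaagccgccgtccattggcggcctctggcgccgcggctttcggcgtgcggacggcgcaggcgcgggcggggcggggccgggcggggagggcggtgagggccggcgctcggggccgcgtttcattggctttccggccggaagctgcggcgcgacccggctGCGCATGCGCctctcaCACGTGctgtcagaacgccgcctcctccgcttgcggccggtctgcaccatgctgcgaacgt

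Cytosolic synthetase transcripts stood above mitochondrial ones in both lines. Levels between genes were compared in the deposited RPKM (reads per kilobase of exon, scaled to library total). The exon length used is the gene's total, which can exceed that of a transcript, so orders between genes depend on it. In DMSO the median over the 19 cytosolic genes was 41.5 RPKM in KG1A and 40.3 in U937, and that over the 16 mitochondrial genes was 6.39 and 8.58. With NEL the cytosolic medians were 40.1 and 30.7 RPKM and the mitochondrial medians 6.30 and 7.11. The summed share of cytosolic genes among all KG1A counts was 0.425% for DMSO against 0.387% for NEL, and for U937 it was 0.446% against 0.403%. For mitochondrial genes the shares were 0.05% against 0.0481% (KG1A) and 0.0866% against 0.0735% (U937).

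GARS1, the glycine enzyme, had the highest level in both lines without NEL, at 105 ± 0.992 RPKM in KG1A and 125 ± 4.45 in U937 (SD, n = 4), and its libraries did not overlap those of the next gene. In KG1A the next was AARS1, the alanine enzyme, at 83.9 ± 5.40 RPKM, which did not overlap its lower neighbour IARS1. That order rests on exon totals of 4498 bases for AARS1 and 7401 for IARS1, against transcripts of 3477 and 4656. The spread of libraries does not cover this. In U937 AARS1 ranked 10 at 42.6 ± 2.96 RPKM, and FARSA followed GARS1 at 97.8 ± 2.95, overlapping EPRS1 at 89.7 ± 5.65. SARS2, the mitochondrial serine enzyme, was lowest in both lines, at 1.65 ± 0.179 and 1.26 ± 0.290 RPKM. IARS2, the mitochondrial isoleucine enzyme, was the highest of its kind, at 25.4 ± 0.647 and 43.3 ± 2.96 RPKM, above 4.71 RPKM for the lowest cytosolic gene of KG1A, HARS1. Most neighbours in the middle of the order overlapped: in U937, IARS2, AARS1, FARSB, VARS1, TARS1, LARS1 and RARS1 formed a run from 43.3 to 33.4 RPKM in which each gene's libraries overlapped those of the next.

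**Figure D1:**
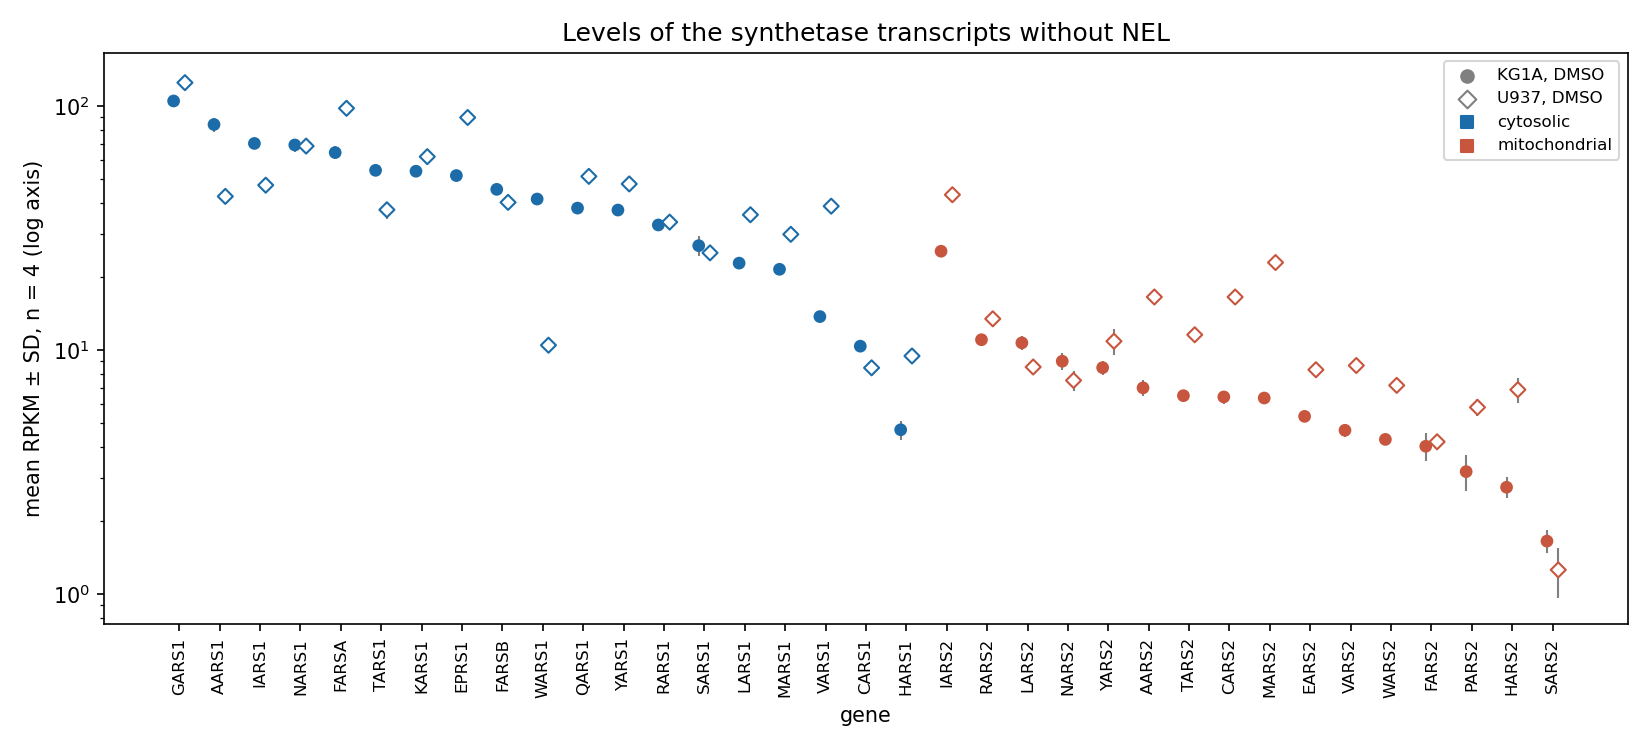
Mean RPKM (log axis, bars: SD, n = 4) of the 35 synthetase genes in DMSO, ordered by kind and then by level in KG1A (filled circles KG1A, open diamonds U937). The cytosolic genes reach 105 RPKM in KG1A and 125 in U937 (GARS1), and WARS1 is the cytosolic gene that drops furthest from KG1A to U937.

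For each amino acid with an enzyme of both kinds, the cytosolic transcript was set against the mitochondrial one, in 17 pairs over 16 amino acids (FARSA and FARSB each with FARS2, and EPRS1 with both EARS2 and PARS2). In KG1A with DMSO the ratio of RPKM ran from 1.61 (cysteine, CARS1 over CARS2) to 16.3 (proline, EPRS1 over PARS2), next to 16.2 for serine (SARS1 over SARS2), with a median of 7.69. In U937 it ran from 0.513 (again CARS1 over CARS2) to 23.2 (FARSA over FARS2), with a median of 4.21. Without NEL, cysteine in U937 was the single pair of the 17, in either line, with the mitochondrial transcript higher in RPKM. CARS2 stood at 16.5 ± 0.189 RPKM and CARS1 at 8.45 ± 0.564. In KG1A the order of CARS1 and CARS2 rests on exon totals of 10037 and 10460 bases, against transcripts of 5732 and 3516. With transcript lengths as the divisor, these genes would stand close together in KG1A. With NEL, 3 of the 17 pairs in U937 had the mitochondrial transcript higher in RPKM. These were CARS2 over CARS1, IARS2 at 42.3 ± 2.52 RPKM over IARS1 at 40.4 ± 0.747, and HARS2 at 7.999 ± 0.836 over HARS1 at 7.49 ± 0.228. The libraries of the last pairs, for isoleucine and histidine, overlapped. Their order also rests on exon totals of 7401 bases for IARS1, 4162 for IARS2, 8436 for HARS1 and 3422 for HARS2. Transcripts of these genes held 4656, 3560, 3494 and 2510 bases. With these lengths as the divisor the cytosolic gene would stand higher in both pairs, so both orders depend on the exon totals. Which transcripts the cells held was not tested. The tryptophan pair, WARS1 over WARS2, stood at 9.66 in KG1A and 1.46 in U937.

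Several of these genes overlap others, which limits how well their reads can be assigned. On the deposited coordinates (GRCh37), WARS1 spans chr14:100800125-100843142 on the minus strand, GARS1 chr7:30634297-30673649 on the plus strand and MARS2 chr2:198570087-198573113 on the plus strand. Of the 35 genes, 21 overlap another gene, 5 on the same strand and 19 on the opposite strand, and whether reads were assigned by strand is not known here. SARS2 shares 71.9% of its 50-base words with another gene and VARS2 shares 30.1% with GTF2H4, so their counts are uncertain. HARS1 and HARS2 overlap each other head to head, and MARS1 overlaps DDIT3, a stress gene, on the opposite strand. MARS2 overlaps another gene on its own strand, where counting by strand cannot separate the reads.

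In KG1A, NEL lowered most cytosolic synthetase transcripts by modest amounts and raised WARS1. Of the 19 cytosolic genes, 13 fell, 2 rose and 4 did not pass the test, and their median log2 fold change was -0.29. Over all 14250 genes tested, 23.6% were called lower, 23.6% were called higher, the median log2 fold change was -0.004, and the median size among called genes was 0.35. Of these calls 50% were higher, and 64.5% in limma's test of RPKM values. Of the 16 mitochondrial genes 5 fell, 1 rose and 10 did not pass, with a median of -0.12. Limma's test of RPKM values called 4 mitochondrial genes higher (HARS2, LARS2, MARS2 and RARS2). Calls here and below rest on the quasi-likelihood test of edgeR at a Benjamini-Hochberg adjusted p under 0.05.

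WARS1, the tryptophan enzyme, had the largest rise. It measured 269.6, 275, 276 and 263 CPM in the DMSO libraries 1 to 4 and 408, 402, 398 and 395 CPM in the NEL libraries. Every NEL library lay above every DMSO library, a log2 fold change of 0.57 ± 0.034 (SE, n = 4 against 4, edgeR adjusted p = 1.17e-08), or 1.48-fold. FARSA, the catalytic subunit of the phenylalanine enzyme, was the other cytosolic gene that rose, from 149.5, 172, 158 and 164 to 174, 198, 176 and 187 CPM. Its groups were adjacent without overlapping, a log2 fold change of 0.19 ± 0.051 (SE, n = 4 against 4, edgeR adjusted p = 0.00604). FARSB, the other subunit of that enzyme, had a log2 fold change of -0.077 ± 0.036, which did not pass (edgeR adjusted p = 0.0944).

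GARS1 had the largest fall. Its DMSO libraries lay close together at 446, 449.8, 441 and 447 CPM and its NEL libraries at 262, 299, 276 and 298. All 4 NEL libraries were far below the DMSO range, a log2 fold change of -0.65 ± 0.043 (SE, n = 4 against 4, edgeR adjusted p = 3.72e-08). MARS1, the methionine enzyme of the complex, fell from 148, 162, 155 and 152 to 111, 109, 113 and 113 CPM. The NEL libraries of MARS1 were nearly equal and lay below all DMSO libraries, a log2 fold change of -0.47 ± 0.039 (SE, n = 4 against 4, edgeR adjusted p = 3.50e-07).

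EPRS1, which charges glutamate and proline, fell from 279.6, 294, 287 and 297 to 205, 217, 207 and 227 CPM. Its groups were well separated, a log2 fold change of -0.44 ± 0.04 (SE, n = 4 against 4, edgeR adjusted p = 8.55e-07). CARS1, the cysteine enzyme, fell from 105, 103, 112 and 108 to 79.8, 79.8, 80.5 and 75.0 CPM, a log2 fold change of -0.44 ± 0.043 (SE, n = 4 against 4, edgeR adjusted p = 1.48e-06). KARS1, the lysine enzyme of both compartments, fell least of the complex enzymes that were called, from 209.9, 198, 219 and 217 to 196, 186, 197 and 193 CPM. Its groups nearly touched without overlapping, a log2 fold change of -0.13 ± 0.04 (SE, n = 4 against 4, edgeR adjusted p = 0.0155), and the call was lost without NEL library 2 (edgeR adjusted p = 0.0527, and 4.44e-06 to 0.241 over all settings tried).

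Of the 7 complex enzymes, 6 fell (EPRS1, IARS1, KARS1, LARS1, MARS1 and RARS1, log2 fold changes from -0.47 to -0.13) and QARS1, the glutamine enzyme, was at -0.022 (edgeR adjusted p = 0.632), for a median of -0.34. Of the 12 outside it, 7 fell and 2 rose, for a median of -0.27. The 7 were CARS1, GARS1, NARS1, SARS1, TARS1, VARS1 and YARS1, from -0.65 to -0.26. AARS1 (-0.037), FARSB and HARS1 (0.037) did not pass.

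Among the mitochondrial enzymes of KG1A, MARS2, the mitochondrial methionine enzyme, was the gene that rose in edgeR's test. It measured 21.0, 18.4, 19.9 and 19.6 CPM with DMSO and 25.2, 23.6, 26.6 and 21.3 with NEL. The lowest NEL library lay just above the highest DMSO library, a log2 fold change of 0.29 ± 0.08 (SE, n = 4 against 4, edgeR adjusted p = 0.00739). WARS2, the mitochondrial tryptophan enzyme, fell from 17.6, 16.1, 17.4 and 16.7 to 12.5, 12.4, 12.6 and 11.2 CPM with no overlap, a log2 fold change of -0.48 ± 0.079 (SE, n = 4 against 4, edgeR adjusted p = 1.68e-04). IARS2 fell from 105, 109, 110.4 and 108 to 81.4, 86.1, 80.0 and 90.2 CPM, also with no overlap, a log2 fold change of -0.36 ± 0.045 (SE, n = 4 against 4, edgeR adjusted p = 1.42e-05). The tryptophan pair therefore moved apart, WARS1 up and WARS2 down, and the methionine pair moved apart the other way, MARS1 down and MARS2 up.

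The remaining falls of mitochondrial genes in KG1A were EARS2 (-0.25 ± 0.061, edgeR adjusted p = 0.00328), AARS2 (-0.17 ± 0.067, 0.0436) and SARS2 (-0.41 ± 0.13, 0.0183), the last with overlapping groups. The call of AARS2 was lost when any single library was left out other than DMSO library 4, with edgeR adjusted p from 0.0586 to 0.142 (0.0078 to 0.452 over all settings tried). That of SARS2 was lost without DMSO library 4 (0.0591) or NEL library 3 (0.0558, and 0.00628 to 0.198 over all settings). That of EARS2 was lost in libraries 1 and 3 alone (0.1, and down to 8.01e-05 in other settings). Without NEL library 3 the count of mitochondrial genes called lower was 3 in place of 5. The 10 that did not pass, CARS2, FARS2, HARS2, LARS2, NARS2, PARS2, RARS2, TARS2, VARS2 and YARS2, ran from -0.13 to 0.20. With the replicate number as a block, FARSB, CARS2 and VARS2 were also called lower in KG1A (edgeR adjusted p = 0.0144, 0.0157 and 0.0201, and up to 0.802, 0.604 and 0.492 in other settings).

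**Figure D2:**
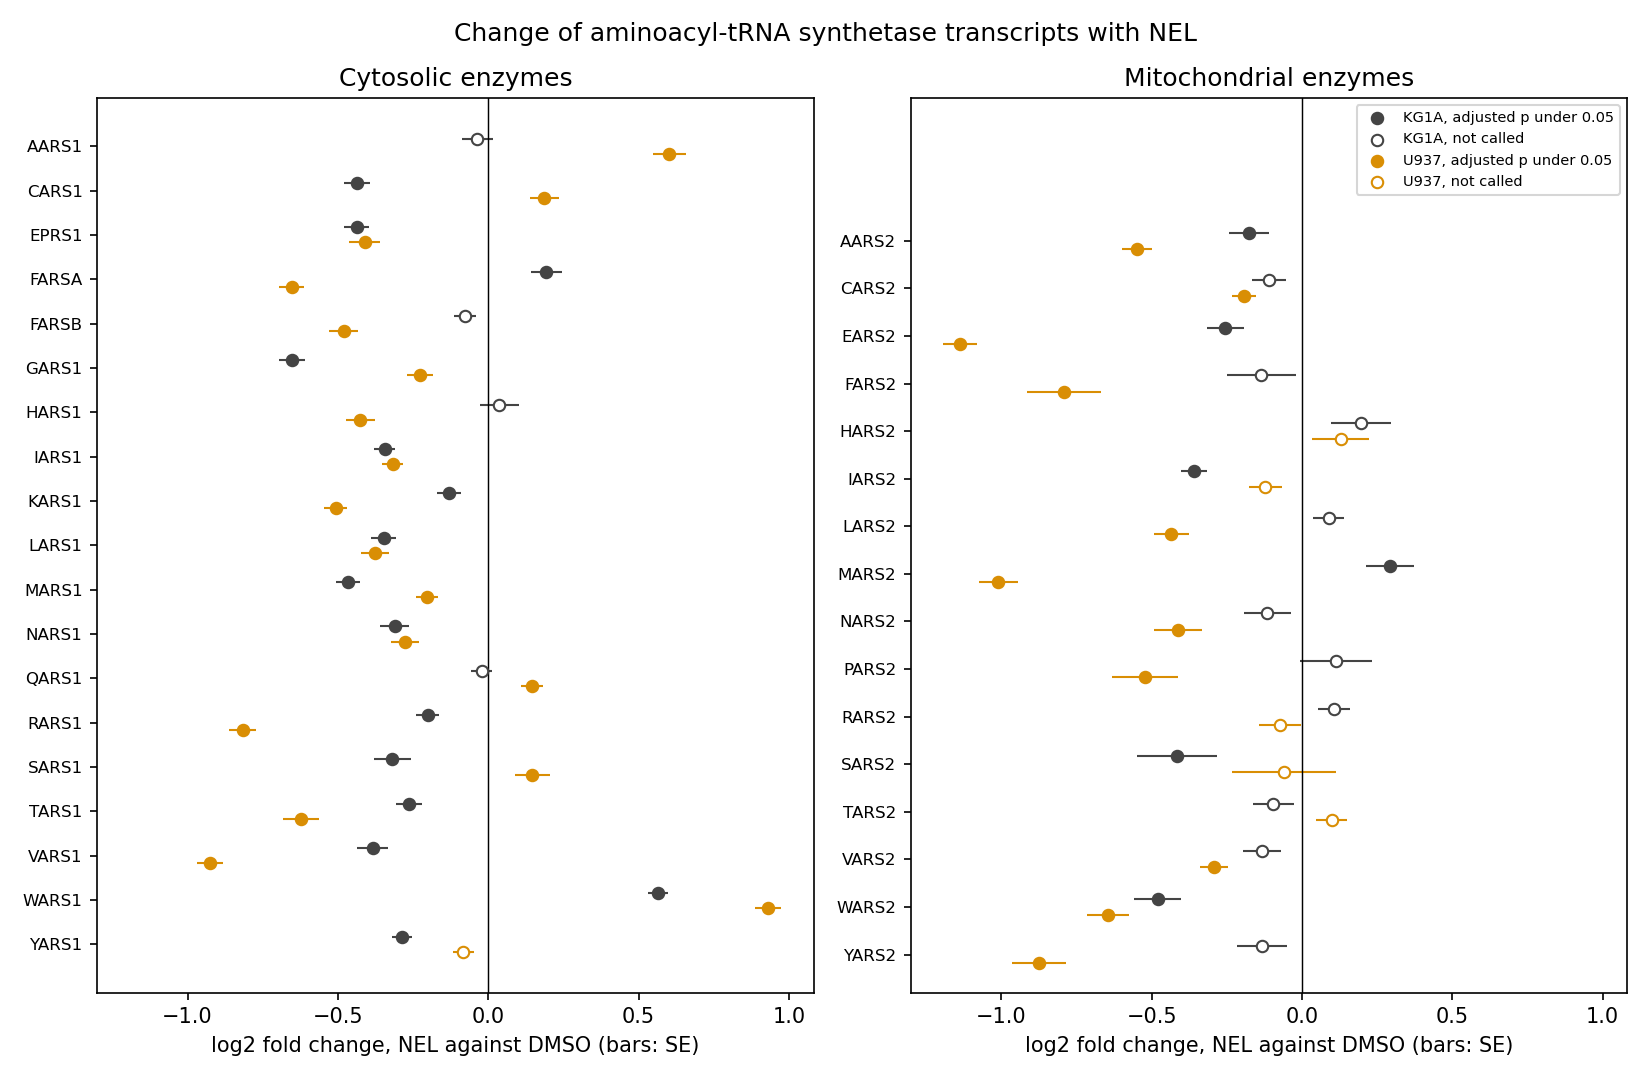
Log2 fold change of NEL against DMSO (horizontal axis, bars: SE, n = 4 against 4) for each cytosolic and mitochondrial synthetase gene, in KG1A (grey) and U937 (orange); filled points had an edgeR adjusted p under 0.05. WARS1 lies right of 0 in both lines, and 11 mitochondrial genes lie left of 0 with filled orange points.

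In U937, NEL lowered most cytosolic and mitochondrial synthetase transcripts and again raised WARS1. Of the 19 cytosolic genes 13 fell, 5 rose (AARS1, CARS1, QARS1, SARS1 and WARS1) and YARS1 did not pass, with a median log2 fold change of -0.32. Of the 16 mitochondrial genes 11 fell, 0 rose and 5 did not pass, with a median of -0.42. At an unadjusted p under 0.05 edgeR also had 0 mitochondrial genes higher, DESeq2's test called 0, and limma's test of RPKM values called 1 (TARS2), as did edgeR without NEL library 3. Over all 14390 genes tested, 34.7% were called lower and 34.6% higher, with a median of -0.004 and a median size of 0.53 among called genes.

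WARS1 rose from 67.8, 65.1, 72.8 and 69.3 CPM in the DMSO libraries to 134, 129, 129 and 132 CPM in the NEL libraries. Each NEL library was far above the DMSO range, a log2 fold change of 0.93 ± 0.044 (SE, n = 4 against 4, edgeR adjusted p = 4.49e-10), or 1.91-fold, from a level well under that of KG1A. AARS1, the alanine enzyme, rose from 186, 210.1, 186 and 209.5 to 285, 322, 286 and 309.9 CPM. Libraries 2 and 4 were the higher ones of AARS1 in both groups, and the groups did not overlap, a log2 fold change of 0.60 ± 0.056 (SE, n = 4 against 4, edgeR adjusted p = 3.38e-07). Within libraries 1 and 3 the log2 fold change of AARS1 was 0.61, and within 2 and 4 it was 0.60.

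The smaller rises were CARS1 (0.19 ± 0.048, edgeR adjusted p = 0.00331), QARS1 (0.15 ± 0.036, 0.00259) and SARS1 (0.15 ± 0.058, 0.0382). SARS1, the serine enzyme, had overlapping groups, and leaving out any of DMSO libraries 1, 2 and 3 or of NEL libraries 2 and 4 ended its call (edgeR adjusted p from 0.0741 to 0.137), as did DESeq2's test (0.0515); over all settings it ran from 2.59e-04 to 0.137.

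VARS1, the valine enzyme, had the largest fall of the cytosolic genes. It measured 248, 248, 248 and 232 CPM with DMSO and 134, 125, 131 and 124 with NEL. DMSO library 4 was lower than the other 3 DMSO libraries but far above all NEL libraries, a log2 fold change of -0.93 ± 0.043 (SE, n = 4 against 4, edgeR adjusted p = 3.34e-10). RARS1, the arginine enzyme, fell from 111, 124, 116 and 122 to 66.5, 68.7, 65.3 and 67.7 CPM, a log2 fold change of -0.82 ± 0.046 (SE, n = 4 against 4, edgeR adjusted p = 2.26e-09). GARS1 fell less here, from 518, 533, 524 and 564 to 446, 473, 437 and 471 CPM, a log2 fold change of -0.23 ± 0.043 (SE, n = 4 against 4, edgeR adjusted p = 3.02e-04).

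EPRS1 fell from 477, 522, 479.6 and 542 to 364, 397, 362 and 397 CPM, with libraries 2 and 4 higher in both groups and no overlap, a log2 fold change of -0.41 ± 0.052 (SE, n = 4 against 4, edgeR adjusted p = 8.08e-06). KARS1 fell from 252, 247, 234 and 245 to 174, 173, 169 and 173 CPM, a log2 fold change of -0.51 ± 0.038 (SE, n = 4 against 4, edgeR adjusted p = 4.15e-08). FARSA and FARSB, the subunits of the phenylalanine enzyme, fell by 0.65 and 0.48 on the log2 scale. Of the 7 complex enzymes 6 fell and QARS1 rose, for a median of -0.38. Of the 12 outside it 7 fell and 4 rose, for a median of -0.25.

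EARS2, the mitochondrial glutamate enzyme, had the largest fall of all 35 genes in U937. It measured 47.7, 50.4, 49.0 and 49.4 CPM with DMSO and 23.1, 23.6, 21.4 and 21.3 with NEL. The NEL libraries all lay far below the lowest DMSO library, a log2 fold change of -1.14 ± 0.057 (SE, n = 4 against 4, edgeR adjusted p = 7.18e-10). MARS2 fell from 77.0, 67.4, 72.6 and 68.6 to 39.4, 32.9, 35.8 and 33.7 CPM, where libraries 1 and 3 were the higher ones of each group, a log2 fold change of -1.01 ± 0.065 (SE, n = 4 against 4, edgeR adjusted p = 8.58e-09). WARS2 fell from 30.6, 27.8, 27.7 and 27.8 to 19.0, 17.8, 16.8 and 19.3 CPM, a log2 fold change of -0.64 ± 0.07 (SE, n = 4 against 4, edgeR adjusted p = 1.76e-06).

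YARS2, FARS2, AARS2, PARS2, LARS2, NARS2, VARS2 and CARS2 also fell, by 0.87 (YARS2, the mitochondrial tyrosine enzyme) to 0.19 (CARS2, the mitochondrial cysteine enzyme) on the log2 scale. IARS2 (-0.12, edgeR adjusted p = 0.0622), HARS2 (0.13), RARS2 (-0.072), SARS2 (-0.06) and TARS2 (0.10) did not pass. With the replicate number as a block, IARS2 and YARS1 were also called lower in U937 (edgeR adjusted p = 3.26e-04 and 0.00288, and up to 0.66 and 0.83 in other settings). The share of counts from mitochondrial DNA moved with treatment and with the library sets: it was 8.90% in libraries 1 and 3 and 7.21% in libraries 2 and 4 with DMSO, and 7.09% and 5.96% with NEL. In KG1A it was 9.79% and 8.46% with DMSO and 9.42% and 7.65% with NEL. Its part in these results was not tested.

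Marker genes of both lines moved in the same U937 libraries. CSF1R, the receptor of the monocyte growth factor M-CSF, rose by 2.84 on the log2 scale, from 2.68 to 19.3 CPM (edgeR adjusted p = 5.57e-11). LYZ and CD33 rose by 0.46 and 0.26, and ELANE fell by 0.95. These were 4 of the 5 promonocytic markers examined, and MPO was too low to test. FGFR1, one of the progenitor genes that mark KG1A and the one of those 3 tested in U937, rose as well, by 1.72, from 7.002 to 23.1 CPM (edgeR adjusted p = 1.03e-09). Their part in the change of the synthetase transcripts was not tested.

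**Figure D3:**
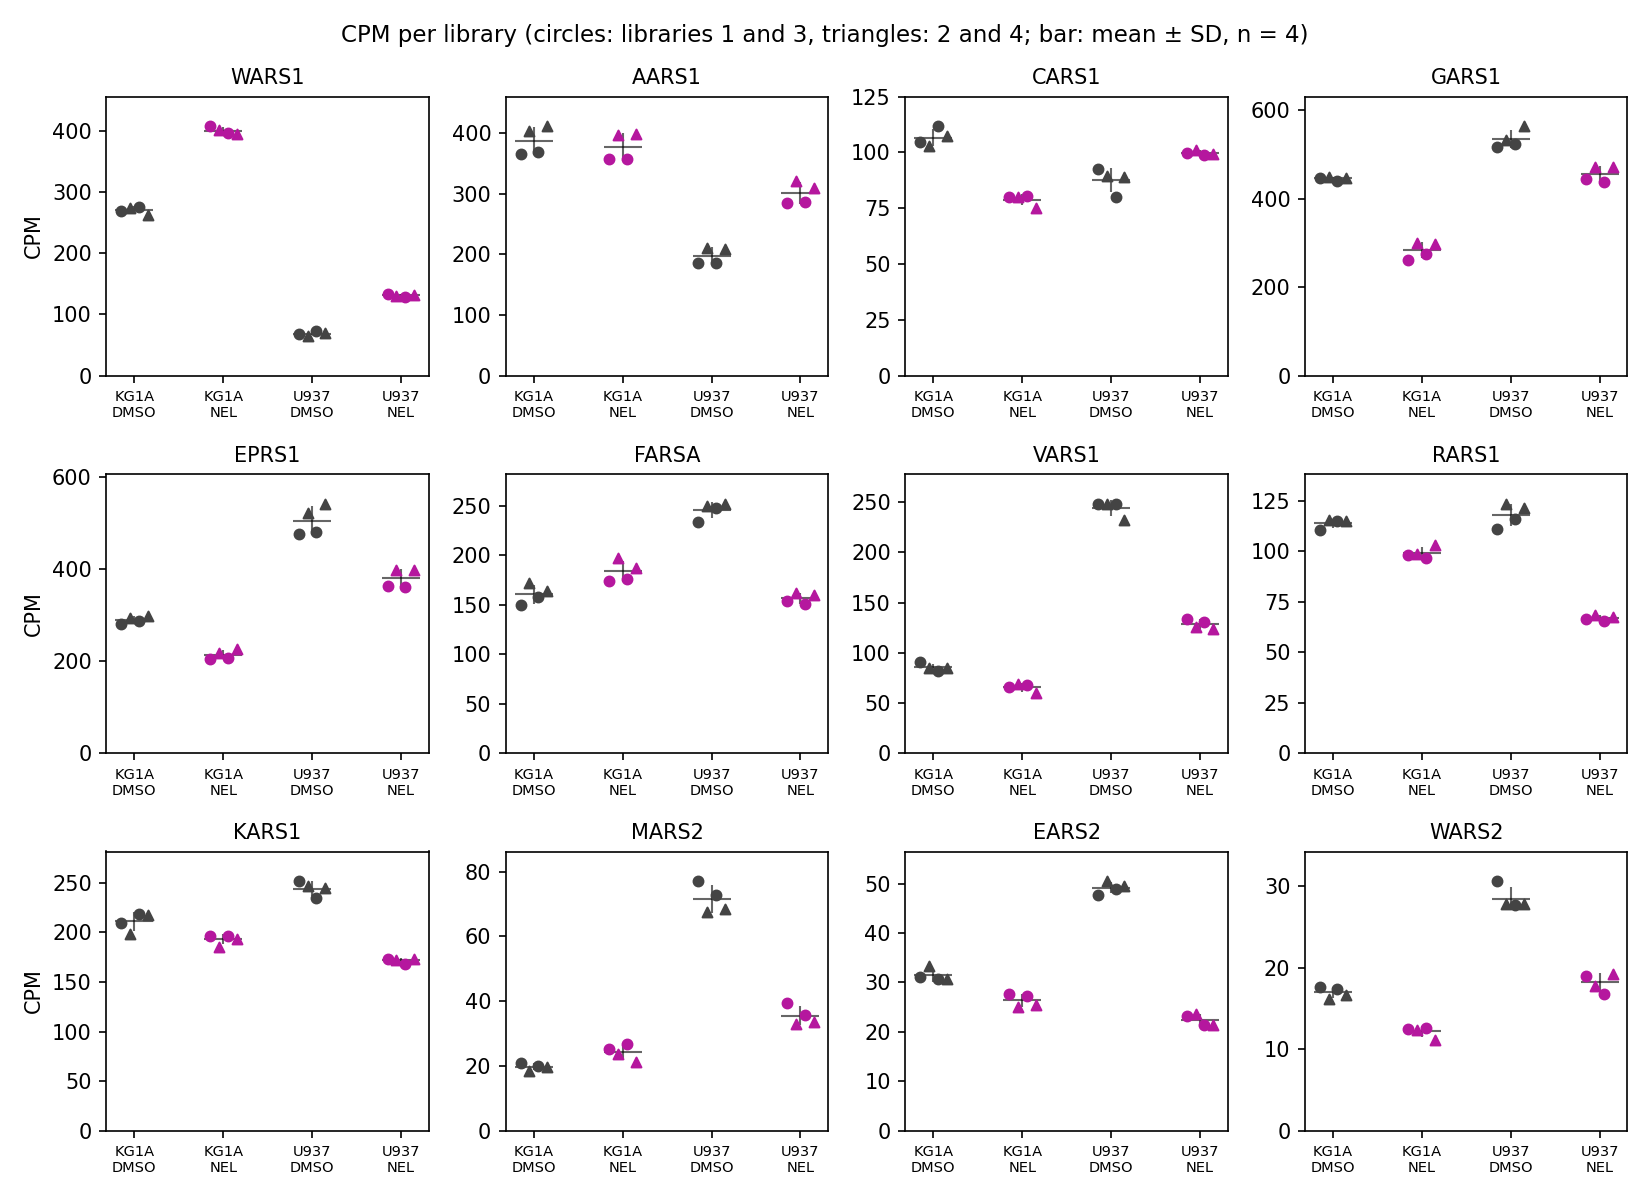
CPM in every library (vertical axis from 0; circles libraries 1 and 3, triangles 2 and 4, bars mean ± SD, n = 4) for 12 synthetase genes in the 4 groups, grey for DMSO and magenta for NEL. WARS1 is higher with NEL in both lines, MARS2 is higher with NEL in KG1A and lower in U937, and AARS1 is higher with NEL in U937 while its KG1A groups overlap.

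Set side by side, 10 cytosolic genes fell in both lines: EPRS1, GARS1, IARS1, KARS1, LARS1, MARS1, NARS1, RARS1, TARS1 and VARS1. WARS1 was the gene that rose in both. Over the 12590 genes tested in both lines, 12.6% were called lower in each and 11.7% higher in each. FARSA rose in KG1A and fell in U937, and CARS1 and SARS1 fell in KG1A and rose in U937. YARS1 passed the test in KG1A and not in U937, and AARS1, QARS1, FARSB and HARS1 in U937 and not in KG1A. Of the mitochondrial genes AARS2, EARS2 and WARS2 fell in both lines, MARS2 changed in opposite directions, and HARS2, RARS2 and TARS2 passed in neither.

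The difference of the effect was tested directly, as the interaction term over all 16 libraries (U937 minus KG1A). Of the 19 cytosolic genes, 8 had a higher effect in U937, 7 a lower one and 4 did not pass, with a median difference of 0.017. Of the 16 mitochondrial genes, 1 had a higher effect, 8 a lower one and 7 did not pass, with a median of -0.25. Over all 16117 genes tested, 21.1% were called higher and 26.3% lower, with a median of -0.03. Of these calls 44.5% were higher, and 54.6% in DESeq2's test.

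MARS2 had the largest difference, with 0.29 in KG1A and -1.01 in U937, a difference of -1.31 ± 0.10 on the log2 scale (SE, edgeR adjusted p = 1.05e-09). EARS2 followed at -0.89 ± 0.078, since it fell in both lines but further in U937. FARSA was the largest negative difference of the cytosolic genes, -0.86 ± 0.067, from opposite changes. RARS1, lower in both lines, differed by -0.63 ± 0.057. The largest positive differences were AARS1 at 0.63 ± 0.08 and CARS1 at 0.61 ± 0.063. For WARS1, higher in both lines, the effect was larger in U937 by 0.36 ± 0.052.

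CARS1 shows the opposite course library by library. Its U937 libraries read 92.5, 89.4, 79.8 and 88.9 CPM with DMSO and 99.9, 101, 98.7 and 99.3 with NEL, where in KG1A all NEL libraries lay below the DMSO range. FARSA shows the reverse, with 234, 249.9, 248 and 252 CPM in U937 with DMSO and 154, 162, 151 and 160.0 with NEL. IARS2 was the mitochondrial gene with a higher effect in U937, at 0.23 ± 0.073 (edgeR adjusted p = 0.0138). Its U937 libraries ran at 174, 195, 176 and 199.6 CPM with DMSO and 161, 183, 167 and 174 with NEL and overlapped, and in libraries 2 and 4 alone the difference did not pass (edgeR adjusted p = 0.0625, and down to 1.18e-05 in other settings). NARS2 was the weakest of the 8 negative mitochondrial differences, at -0.31 ± 0.11 (0.0315), and its call was lost without KG1A DMSO or NEL library 4, U937 DMSO library 2 or 4, or U937 NEL library 3 or 4 (0.0539 to 0.0792, and 0.00151 to 0.492 over all settings). With the replicate number as a block, RARS2 and VARS2 also had a lower effect in U937 and TARS2 a higher one (edgeR adjusted p = 0.0427, 0.024 and 0.0389, and up to 0.881, 0.484 and 0.228 in other settings), which made 2 mitochondrial genes higher and 10 lower.

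The pairs of cytosolic and mitochondrial enzymes of an amino acid moved differently in the lines. In KG1A the cytosolic gene had the lower log2 fold change in 11 of the 17 pairs, and in U937 it had the higher one in 12. The alanine pair had AARS1 at 0.60 and AARS2 at -0.55 in U937, and -0.037 and -0.17 in KG1A. The methionine pair had MARS1 at -0.20 and MARS2 at -1.01 in U937, against -0.47 and 0.29 in KG1A. The tyrosine pair had YARS1 at -0.082 and YARS2 at -0.87 in U937. These counts describe the pairs and carry no test of their own.

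**Figure D4:**
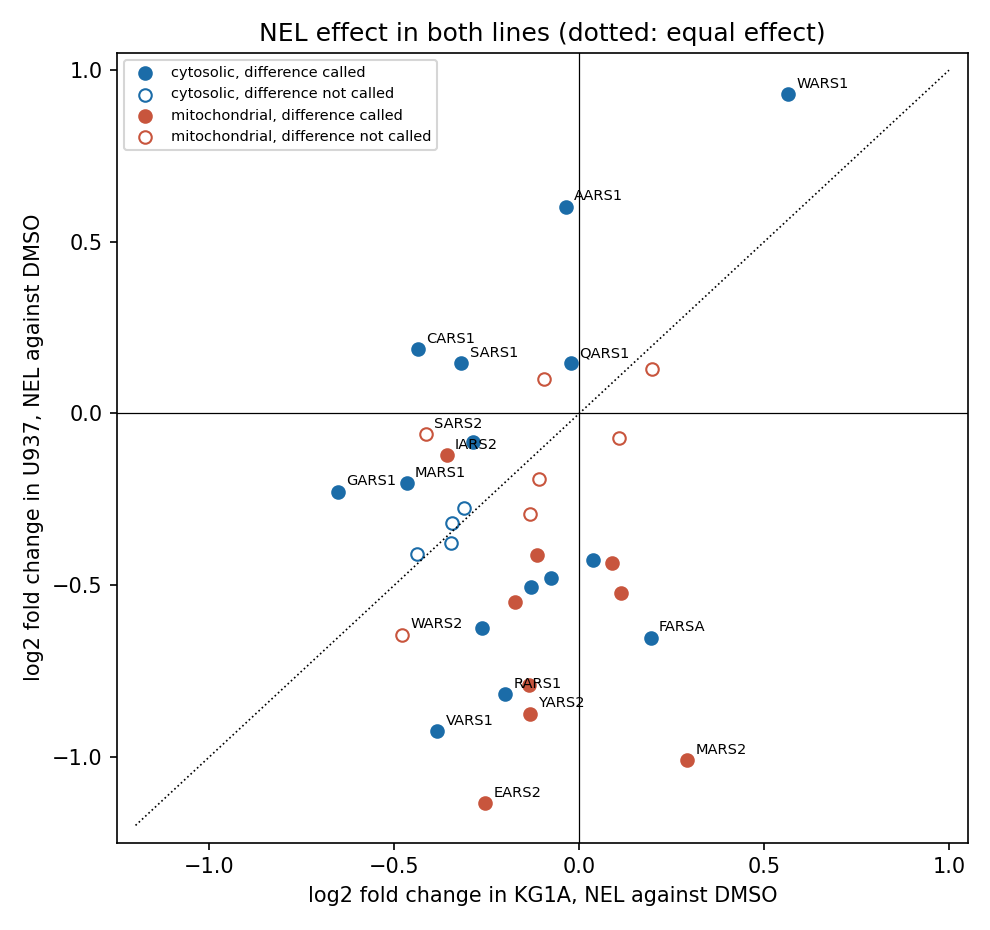
Log2 fold change with NEL in KG1A (horizontal axis) and U937 (vertical axis) for the 35 synthetase genes, coloured by kind; filled points had a called difference between the lines, and the dotted line marks equal effects. WARS1 lies at the upper right, and MARS2, EARS2, FARSA and RARS1 lie well below the dotted line.

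Grouped by the promoter letters shown above, the 7 cytosolic genes with TGATGNAA were 6 lower and 1 not passing in KG1A (median log2 fold change -0.34), and 5 lower and 2 higher in U937 (median -0.23). The 9 cytosolic genes with a promoter and without these letters were 4 lower, 2 higher and 3 not passing in KG1A (median -0.08), and 6 lower and 3 higher in U937 (median -0.43). Over all genes tested, 23.6% were called lower and 23.6% higher in KG1A, and 34.7% and 34.6% in U937. The difference between the lines had a median of 0.25 with these letters and -0.39 without them. Of the 3 mitochondrial genes with CACGTG (CARS2, EARS2 and MARS2), all 3 fell in U937, while in KG1A 1 rose, 1 fell and 1 did not pass. Of the 11 without it 6 fell in U937, and in KG1A 3 fell and 8 did not pass. This grouping was not tested.

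Without NEL, most mitochondrial synthetase transcripts were higher in U937 than in KG1A, while the cytosolic ones were divided. Of the 16 mitochondrial genes, 12 were higher in U937, 3 lower (LARS2, NARS2 and SARS2) and FARS2 did not pass, with a median log2 fold change of 0.69. Of the 19 cytosolic genes, 10 were higher, 7 lower and 2 (NARS1 and RARS1) did not pass, with a median of 0.14. Over all 15181 genes tested, 43% were called higher and 43.4% lower, with a median of -0.001 and a median size of 1.02 among called genes. Line is not a treatment, and everything else that separates these lines, culture included, cannot be told apart from it.

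WARS1 had the largest difference. It measured 269, 273, 275 and 262 CPM in KG1A and 64.4, 61.9, 69.3 and 65.5 in U937, a log2 fold change of -2.05 ± 0.045 (SE, n = 4 against 4, edgeR adjusted p = 9.92e-17), or 4.13-fold lower in U937. With NEL, WARS1 in U937 still lay under the KG1A level without it. AARS1 was also lower in U937, at 177, 199.8, 177 and 198 against 365, 401, 368 and 409 CPM, with libraries 2 and 4 higher in both lines and no overlap, a log2 fold change of -1.04 ± 0.054 (SE, n = 4 against 4, edgeR adjusted p = 1.07e-11). VARS1 was higher, at 236, 236, 236 and 219 CPM in U937 and 90.3, 84.0, 82.0 and 84.4 in KG1A, a log2 fold change of 1.44 ± 0.045 (SE, n = 4 against 4, edgeR adjusted p = 1.12e-14). HARS1, the cytosolic histidine enzyme, was at 74.3, 79.3, 76.6 and 83.0 and 37.2, 41.8, 38.6 and 44.8 CPM, a log2 fold change of 0.95 ± 0.061 (SE, n = 4 against 4, edgeR adjusted p = 2.14e-10).

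MARS2 was the mitochondrial gene with the largest difference, at 73.2, 64.1, 69.1 and 64.9 CPM in U937 and 21.0, 18.3, 19.9 and 19.6 in KG1A, a log2 fold change of 1.79 ± 0.064 (SE, n = 4 against 4, edgeR adjusted p = 7.55e-14). CARS2 stood at 171, 169, 171 and 167 and 72.6, 63.0, 71.8 and 67.3 CPM, a log2 fold change of 1.30 ± 0.048 (SE, n = 4 against 4, edgeR adjusted p = 1.06e-13). For both genes the lines did not overlap. SARS2 was lower in U937, at 5.09, 4.80, 3.05 and 5.34 against 6.54, 6.04, 5.41 and 6.98 CPM, a log2 fold change of -0.45 ± 0.16 (SE, n = 4 against 4, edgeR adjusted p = 0.0159), but shares most of its sequence words with another gene, and without U937 DMSO library 3 its call was lost (edgeR adjusted p = 0.0638, and 0.00222 to 0.0757 over all settings). LARS2, the mitochondrial leucine enzyme, was lower too, at 44.1, 45.0, 42.7 and 48.5 against 55.2, 63.5, 60.3 and 56.8 CPM, a log2 fold change of -0.39 ± 0.059 (SE, n = 4 against 4, edgeR adjusted p = 1.20e-05).

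HARS2, TARS2, AARS2, VARS2, PARS2, IARS2, WARS2, EARS2, YARS2 and RARS2 were the other mitochondrial genes higher in U937, by 1.27 (HARS2) to 0.23 (RARS2) on the log2 scale. The groups of YARS2 overlapped, and in libraries 1 and 3 alone neither YARS2 (edgeR adjusted p = 0.305) nor RARS2 (0.141) passed, though in other settings these went down to 5.52e-06 and 9.03e-05. Of the cytosolic genes, EPRS1, LARS1, FARSA, MARS1, QARS1, YARS1, GARS1 and KARS1 were higher by 0.73 (EPRS1) to 0.14 (KARS1). IARS1, TARS1, CARS1, FARSB and SARS1 were lower by 0.63 (IARS1) to 0.16 (SARS1). SARS1 had overlapping groups, and its call was lost without any of KG1A library 2 or 4 or U937 library 1 or 3 (0.056 to 0.0925, and 3.84e-05 to 0.298 over all settings). With the replicate number as a block NARS1 was also called lower in U937 (edgeR adjusted p = 0.0115, and up to 0.834 in other settings).

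Genes that act around the synthetases were read from lists chosen with the same knowledge of the data, and their counts stand beside 23.6% of all genes called lower and 23.6% higher in KG1A, and 34.7% and 34.6% in U937. The scaffold proteins of the complex, AIMP1, AIMP2 and EEF1E1, did not pass in KG1A (-0.08, -0.13 and -0.048, edgeR adjusted p = 0.229, 0.226 and 0.635), and all 3 fell in U937. AIMP2 had the largest fall, from 65.0 to 27.9 CPM in U937 (-1.22, edgeR adjusted p = 1.75e-10).

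Of 8 genes for editing, amidation and formylation of charged transfer RNA, 3 fell in KG1A and 7 in U937, and the others did not pass. DTD2, a deacylase that removes wrongly joined amino acids, changed by -0.36 in KG1A and -1.16 in U937. GATC, a subunit of the amidotransferase that makes mitochondrial glutaminyl-tRNA from the product of EARS2, changed by -0.35 in KG1A and -0.68 in U937. MTFMT, which formylates the mitochondrial methionyl-tRNA made by MARS2, fell by 0.27 in U937 and was at 0.13 in KG1A, where it did not pass.

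Of 11 genes for transfer RNA maturation and export, 3 rose and 3 fell in KG1A. In U937 10 fell, and TSEN15 did not pass. XPOT, the export receptor of transfer RNA, fell by 0.48 in KG1A and 0.16 in U937. CLP1, a kinase of the splicing endonuclease complex, rose by 0.28 in KG1A and fell by 1.02 in U937. Of 6 mitochondrial elongation and initiation factors 1 rose and 3 fell in KG1A, and 5 fell in U937, TUFM, the elongation factor that delivers charged transfer RNA, by 0.65. Of the 4 cytosolic elongation factors tested 3 fell in KG1A and 2 in U937. EEF1G, also on that list, reached at most 0.0922 CPM in a KG1A library and 0.087 in a U937 library, too low to test. Whether its reads were lost in counting was not tested. EEF1A1, the cytosolic counterpart of TUFM, fell by 0.40 in KG1A and was at 0.011 in U937 (edgeR adjusted p = 0.849).

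The amino acid response was followed through ATF4 and 7 related genes, of which 2 rose and 5 fell in KG1A, and 5 rose and 2 fell in U937. ATF4 itself fell in both lines, by 0.54 and 0.40. ASNS, asparagine synthetase, fell by 0.66 in KG1A and was at 0.10 in U937 (edgeR adjusted p = 0.181), a difference between the lines of 0.76 ± 0.079 (edgeR adjusted p = 6.85e-08). CHAC1, a glutathione-degrading target of ATF4, fell by 0.51 in KG1A and rose by 0.86 in U937. TRIB3, a pseudokinase of the same response, rose in both lines, by 0.39 and 0.51. DDIT3 rose by 0.49 and 0.92, and lies opposite MARS1, so reads of the pair may not be separable. DDIT4 had the largest change of the list in U937, 1.79 on the log2 scale. It measured 59.9, 56.7, 56.2 and 49.1 CPM with DMSO and 203, 183, 190 and 191 with NEL. In KG1A DDIT4 read 91.3, 81.9, 92.3 and 87.2 CPM with DMSO and 77.1, 67.0, 74.4 and 74.9 with NEL. SESN2 and EIF2AK4 complete the list.

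Interferon-gamma targets were read beside WARS1, which rose in both lines. Of 5 targets, 1 rose in KG1A (GBP2, 0.28), 1 fell (TAP1, -0.23) and IRF1, IRF9 and GBP1 did not pass. In U937, 2 of the 3 tested rose: IRF9, an interferon transcription factor, by 0.84 from a low level, and TAP1, a peptide transporter for antigen presentation, by 0.35, while IRF1 was at 0.16 (edgeR adjusted p = 0.108). GBP1 and GBP2 were too low in U937 to test. Without NEL all 5 were lower in U937 than in KG1A, IRF1 by 2.25 on the log2 scale, and 43.4% of all genes tested were called lower.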

How the data were processed

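Polyadenylated RNA of 16 libraries was measured with a stranded Kapa kit, per the labels' protocols. HTSeq 0.11.2, TopHat2 and bcl2fastq 2.18.0.12 are listed in the submitters' processing notes, with the GRCh37 build. Annotation, strand setting and TopHat2 version: not given in the sources used here. As files, the authors deposited raw read counts per gene and RPKM values made from the same libraries. The deposited RPKM could be rebuilt from counts, exon lengths and totals (relative deviation at most 1.86e-07) and are no independent evidence.

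Gene IDs were matched to symbols through a table of names (32562 of 34618, the others holding 0.878% of counts). The members and all gene lists were chosen with earlier results of these data known. A gene of the interferon-gamma list and a promoter element are not reported here. Named in full were, per comparison and kind of enzyme, up to 2 called genes each way with the largest log2 fold change (for NEL, among those with groups that do not overlap), plus WARS1, GARS1, KARS1 and EPRS1. WARS2 in U937 was added after its values were seen.

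The test was edgeR 4.0.16's quasi-likelihood test on counts with TMM factors (R 4.3.3), over all genes that passed its low-count filter (minimum count 10, minimum total 15). Benjamini-Hochberg adjustment covered all genes tested, and an adjusted p under 0.05 was called. The NEL comparisons used the 8 libraries of a line, the difference all 16 and the line comparison the DMSO libraries. The fits share libraries, and CPM values follow the factors of each fit. SE is the log2 fold change divided by the square root of F. The fit was tested on simulated data. At these depths 3 counts, the limit that a count of 0 allows, equal 0.255 to 0.282 CPM, for counting error only.

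Alternatives were DESeq2 1.42.0 factors and test, upper quartile factors, other filters, limma 3.58.1 on log2(RPKM + 0.5) or log2(RPKM + 0.1), an adjusted p under 0.01, the library set as a covariate, sums of libraries 1 and 2 and of 3 and 4, a single model of all libraries, TMM-scaled RPKM, and each library left out. Odd-numbered and even-numbered libraries alone were added after seeing the data. Deviations of libraries with the same number correlated in every pair (0.130 to 0.153 for KG1A with DMSO and NEL, 0.136 to 0.237 for U937 with DMSO and NEL, 0.112 to 0.145 for the lines in DMSO), and the replicate number was also used as a block. Different numbers within the odd or even set correlated too, as KG1A DMSO library 1 did with NEL library 3 (0.197). The own number was the best match for 2 DMSO libraries in KG1A, 2 in U937 and 3 between the lines. The correlation therefore does not set the number apart from the odd or even set. The pairing comes from the data and the numbers, not from a label that says a number marks a shared batch.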

Additional observations from a re-analysis of the deposited data

Results flagged for a closer look

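In 8 of 140 groups of 4 libraries, the highest or lowest library stood apart, the ratio of its gap to the nearest other library over the group's whole range being above Dixon's critical value. Chance alone gives this in about 1 in 20 groups, a share close to that found. In KG1A with DMSO these were library 1 of RARS1, the lowest (ratio 0.882), and library 2 of EARS2, the highest (0.851). In KG1A with NEL they were library 4 of CARS1, the lowest (0.872), library 1 of AARS2, the lowest (0.891), and library 4 of NARS2, the highest (0.894). In U937 they were DMSO library 4 of VARS1, the lowest (0.972), DMSO library 1 of WARS2, the highest (0.985), and NEL library 3 of TARS2, the lowest (0.878). Without the library concerned, AARS2 in KG1A lost its call and TARS2 in U937 gained one. The difference between the lines lost its call for NARS2 (edgeR adjusted p = 0.0792, and 0.00151 to 0.492 over all settings) and gained one for TARS2 (0.0422, and 0.00946 to 0.228 over all settings).

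The effect of NEL differed between the lines in 24 of the 35 genes by the interaction test (edgeR adjusted p under 0.05), 9 higher in U937 and 15 lower, against 21.1% and 26.3% of all genes tested. Log2 differences, U937 minus KG1A, were positive for the cytosolic genes AARS1 (0.63), CARS1 (0.61), SARS1 (0.46), GARS1 (0.41), WARS1 (0.36), MARS1 (0.25), YARS1 (0.19) and QARS1 (0.16). They were negative for FARSA (-0.86), RARS1 (-0.63), VARS1 (-0.55), HARS1 (-0.47), FARSB (-0.41), KARS1 (-0.39) and TARS1 (-0.37). Of the mitochondrial genes, IARS2 had a positive difference (0.23), and MARS2 (-1.31), EARS2 (-0.89), YARS2 (-0.75), FARS2 (-0.67), PARS2 (-0.65), LARS2 (-0.53), AARS2 (-0.38) and NARS2 (-0.31) had negative ones. The difference of FARS2 was not called in even-numbered libraries alone (edgeR adjusted p = 0.442, and down to 9.02e-06 in other settings), nor that of QARS1 with no filter on low counts (0.0724, and down to 2.92e-07 in others).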

How the results depend on the processing

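Over 140 results (35 genes in 4 comparisons), 112 kept their side of the threshold under every alternative run, and 28 changed it under at least 1. Of the 112, the 93 called ones also kept their direction, and of the 19 not called 12 changed sign in at least 1 alternative. Of 3325 recomputed values 65 lost a call, 67 gained one and 0 reversed a called direction. The mitochondrial genes called lower with NEL in KG1A numbered 5, against 3 at an adjusted p under 0.01, 3 in DESeq2's test and 3 to 5 with a library left out (3 without NEL library 3). Those called higher in KG1A numbered 1, against 4 with limma on log2(RPKM + 0.5) and on log2(RPKM + 0.1), and 2 in even-numbered libraries alone. Those called higher in U937 numbered 0, against 1 with upper quartile factors and with limma at both pseudocounts, and 0 to 1 with a library left out (1 without NEL library 3). For the difference between the lines, the mitochondrial genes called higher numbered 1, against 0 at an adjusted p under 0.01 and in even-numbered libraries alone. That count was 2 with DESeq2 size factors, upper quartile factors, DESeq2's test, limma at both pseudocounts and the library set as a covariate. It was 1 to 2 with a library left out (2 without KG1A DMSO library 3, KG1A NEL library 4 or U937 NEL library 3). With the replicate block, which pairs libraries by number, it was also 2, and the block moved no other count by over 1.5 times: cytosolic genes were then 2 higher and 14 lower in KG1A, and 5 higher and 14 lower in U937. The cause of these changes was not tested, beyond the stricter threshold and the fewer libraries that some settings hold by construction. SARS2 had the fewest counts (36 to 76 per library) and, in each comparison, the largest SE of the 35 genes (0.13 to 0.22).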
